A study of Homo sapiens with 6 samples.

Results

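The leukocyte integrins described here are 10 genes, ITGAL, ITGAM, ITGAX, ITGB2, ITGA4, ITGA5, ITGB1, ITGB7, ITGB3 and ITGAV. They were measured on Affymetrix HG-U133A microarrays by every probe set annotated to exactly 1 of these genes. This gave 23 of the 22283 probe sets on the array. Of the 23, 15 exceeded a scaled signal of 20 on at least 3 of the 6 arrays and could be tested. The RNA came from HL60 cells, an established human promyelocytic leukemia line, after 5 days with 1 μM tretinoin (all-trans retinoic acid) carried in DMSO at 0.1%, or after 5 days with the same 0.1% of DMSO and no tretinoin. Both conditions had 3 arrays, which the study's methods describe as parallel hybridizations of pooled labeled product, so p-values here measure the spread between hybridizations and not between cultures. The arrays average over all cells of a culture, and fewer cells carrying a transcript cannot be told apart from less transcript per cell.

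Integrins are adhesion receptors made of 1 alpha and 1 beta chain, and the pair decides which ligand is bound. ITGB2 (CD18) is the beta chain shared by the leukocyte receptors LFA-1 (with ITGAL, CD11a), Mac-1 (with ITGAM, CD11b) and p150,95 (with ITGAX, CD11c), which bind intercellular adhesion molecules and, for Mac-1 and p150,95, complement fragments. ITGA4 pairs with ITGB1 or ITGB7 and binds vascular and mucosal adhesion molecules, ITGA5 pairs with ITGB1 as a fibronectin receptor, and ITGAV pairs with ITGB1, ITGB3 and other beta chains on matrix proteins. Mac-1 is long known as a surface marker that appears when myeloid cells mature. In the human assembly GRCh38.p14, ITGAM (chr16:31259975-31332877) and ITGAX (chr16:31355176-31382999) are neighboring protein-coding genes, ITGAL (chr16:30472742-30523185) lies on the same chromosome, and ITGB2 lies at chr21:44885953-44928815.

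Of the 6 genes with a probe set called higher below, 4 had an entry in the RefSeq promoter table, and their 250 bases upstream of the transcription start are shown because they belong to the members that moved. ITGB2 and ITGB3 had no entry. Capitals mark each GAGGAA, the core of a purine-rich element of the kind bound by ETS factors such as PU.1, and each GGGCGG, the core of a GC box, in either orientation. The table gives 2 start sites for ITGAV and for ITGB1, and 1 is shown for each. Sequences are from RefSeq, build GRCh38.p14, written 5′ to 3′ on the strand of the gene.
ITGAM, chr16:31259725-31259974 (+ strand): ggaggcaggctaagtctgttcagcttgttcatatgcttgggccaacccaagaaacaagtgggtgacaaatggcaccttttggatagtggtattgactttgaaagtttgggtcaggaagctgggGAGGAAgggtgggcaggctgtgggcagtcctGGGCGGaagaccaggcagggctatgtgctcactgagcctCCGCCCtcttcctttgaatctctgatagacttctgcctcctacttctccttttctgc
ITGB7, chr12:53207252-53207501 (- strand): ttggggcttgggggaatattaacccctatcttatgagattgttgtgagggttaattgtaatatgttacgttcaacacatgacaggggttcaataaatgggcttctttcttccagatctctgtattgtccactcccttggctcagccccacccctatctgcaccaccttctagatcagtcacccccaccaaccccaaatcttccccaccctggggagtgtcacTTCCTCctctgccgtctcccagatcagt
ITGAV, chr2:186589806-186590055 (+ strand): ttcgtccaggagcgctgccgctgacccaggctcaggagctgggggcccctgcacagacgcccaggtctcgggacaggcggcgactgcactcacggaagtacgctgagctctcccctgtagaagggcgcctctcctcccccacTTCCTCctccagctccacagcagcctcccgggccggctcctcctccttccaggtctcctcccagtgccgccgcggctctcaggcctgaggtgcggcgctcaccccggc
ITGB1, chr10:32958231-32958480 (- strand): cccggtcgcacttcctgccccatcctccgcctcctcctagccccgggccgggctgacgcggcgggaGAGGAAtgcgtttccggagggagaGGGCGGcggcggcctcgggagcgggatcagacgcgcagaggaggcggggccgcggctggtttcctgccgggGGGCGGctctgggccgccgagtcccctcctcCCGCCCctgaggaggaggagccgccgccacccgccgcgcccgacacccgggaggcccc
GAGGAA, or its reverse complement TTCCTC, was found in each of these 4 windows. In ITGAM it lies 127 to 122 bases before the start and in ITGB7, as TTCCTC, 28 to 23 bases before it. The same 6 letters occur in 23.6% of the 34943 upstream windows of this length in the table, and in neither of the windows of ITGA4 and ITGA5. The ITGA4 window (chr2:181457136-181457385) runs past the first annotated base of the gene, 181457205, so much of it lies inside the gene. GGGCGG, found in ITGAM, ITGB1 and ITGA5, occurs in 42.5% of all windows. AGGTCA, a form of the half-site of retinoid receptors, is in none of the 6 member windows and in 12.1% of all. Other forms of the half-site were not searched, so this does not show that the windows lack one. These are matches of letters and not measured binding.

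Probe sets were compared between conditions with limma over all 13374 that passed the same filter. A probe set was called when its adjusted p (Benjamini-Hochberg) was under 0.05 and its fitted change at least 1.5-fold. Of these, 27.5% were called, 13.6% higher and 13.8% lower in tretinoin. Signals are linear MAS5 values multiplied per array so that all arrays had the mean of DMSO replicate 1, with values below 20 set to 20 before the test, as the study's methods describe. Scale factors ran from 0.939 to 1.36 on the tretinoin arrays and from 0.820 to 1.03 on the DMSO arrays. Without scaling the median log2 fold change over all tested probe sets was -0.21 instead of -0.03, and 33.1% of calls were higher instead of 49.6%. The 3′ to 5′ signal ratio of the ACTB control, which falls with intact RNA and full-length labeling, was 1.14 to 1.17 on tretinoin arrays and 1.38 to 1.42 on DMSO arrays. That of GAPDH leaned the other way, at 1.15 to 1.19 on tretinoin arrays and 1.06 to 1.17 on DMSO arrays. The part of either in the results was not tested. MPO, an azurophil granule gene that marks promyelocytes, was above 20 on all 6 arrays, at 162 ± 12.4 in tretinoin and 2739 ± 86.2 in DMSO (SD, n = 3 each).

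Among the 15 tested integrin probe sets, 6 were called higher in tretinoin, against 13.6% of all tested, and none was called lower. At an unadjusted p under 0.05 from limma, 7 were higher and none lower. The share of all tested probe sets at this looser cutoff was not counted, here or for the lists below. The 13.6% does not apply to it, so no excess over all tested probe sets is read from these counts. The 6 belong to ITGB7, ITGAM, ITGB2, ITGAV, ITGB1 and ITGB3, 1 probe set each. The probe sets of ITGB7 and ITGAV passed the filter through their tretinoin arrays and so had to differ to be tested. Those of ITGAM and ITGB2 are among the 90 transcripts the study itself picked from these arrays for their change, and their direction is not independent evidence.

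**Figure D1:**
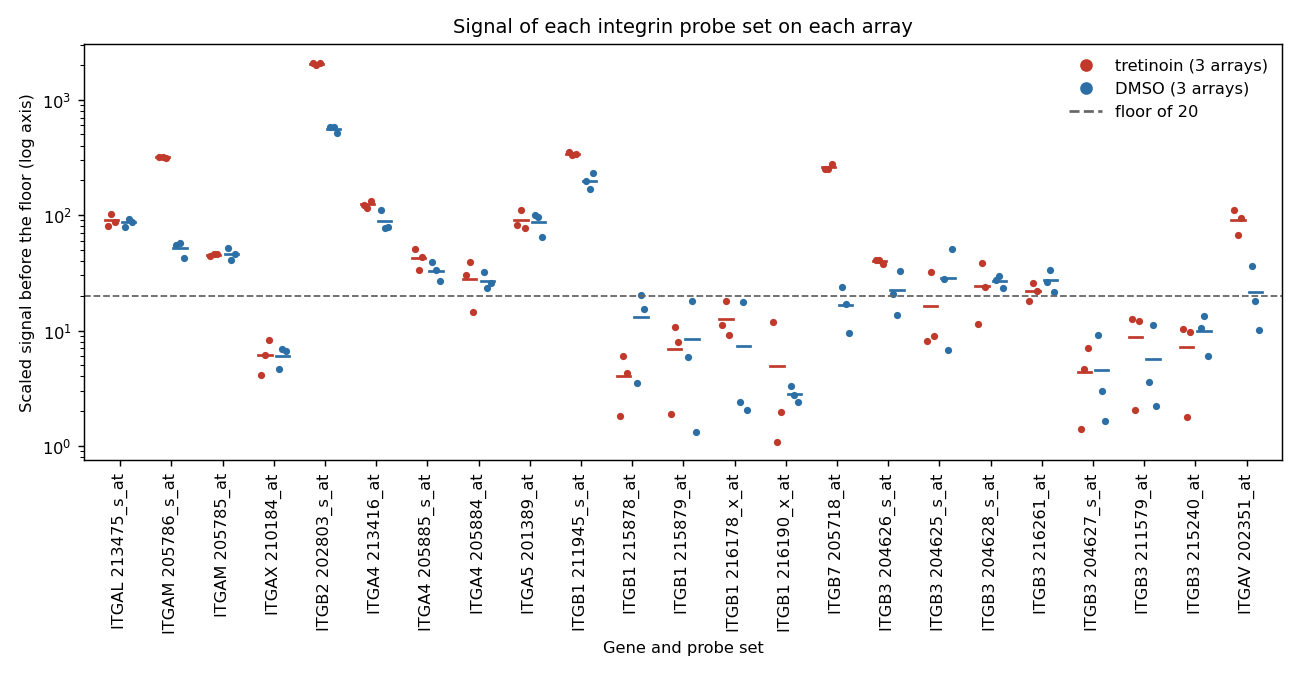
Scaled signal, before the floor, of each of the 23 integrin probe sets on each of the 6 arrays (log axis). Points are arrays, short bars are means of 3 arrays and the dashed line is the floor of 20. The tretinoin points of ITGB7 205718_at lie between 248 and 278, far above its DMSO points, while 7 probe sets never reach 20.

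The beta 2 family was led by its shared chain and by ITGAM. ITGB2 (202803_s_at) had scaled signals of 2077, 1994 and 2084 on the tretinoin arrays, against 585, 582 and 516 on the DMSO arrays. Its signal was 3.66-fold higher in tretinoin and the conditions lay far apart (log2 fold change 1.87 ± 0.12, SE, limma adjusted p = 8.61e-05). ITGAM (205786_s_at) had 319, 319 and 312 in tretinoin, against 55.6, 57.0 and 42.3 in DMSO. It was 6.13-fold higher, with almost no spread among the tretinoin arrays (log2 fold change 2.63 ± 0.15, adjusted p = 5.82e-05). The other alpha chains of the family were not called. ITGAL (213475_s_at) had 80.4, 102.2 and 87.2 in tretinoin, against 79.0, 93.2 and 87.9 in DMSO. These ranges overlap, and the 95% interval of its log2 fold change, -0.29 to 0.39, ended below that of ITGB2, which began at 1.59. ITGAX (210184_at), by its only probe set, stayed at 4.11 to 8.26 in tretinoin and 4.6 to 6.97 in DMSO, below the floor on every array, so no change could be measured for it.

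The second probe set of ITGAM disagreed with the first. On 205785_at the gene had 44.5, 46.0 and 46.2 in tretinoin, against 51.7, 40.7 and 45.9 in DMSO. All 6 values exceeded 20, the conditions overlapped, and the log2 fold change was -0.01 ± 0.13 (95% interval -0.33 to 0.31, adjusted p = 0.965). Taken within each array, the log2 change on 205785_at minus that on 205786_s_at was -2.64 ± 0.18 (SE). Differences of this kind were compared for 13 pairs by an exact two-sided permutation test over arrays, whose smallest possible p with 3 against 3 is 0.10. This pair reached it (exact p = 0.10, adjusted p = 0.186 over the 13), and the arrays of the conditions did not overlap. Which part of the transcript each probe set reads was not analysed here.

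The chains of Mac-1 and of LFA-1 were compared in the same way. The log2 change of ITGAM on 205786_s_at minus that of ITGB2 was 0.76 ± 0.08 (SE, exact p = 0.10, adjusted p = 0.186). That of ITGAL minus ITGB2 was -1.82 ± 0.16 (exact p = 0.10, adjusted p = 0.186). The within-array differences of both pairs did not overlap between conditions, but neither test could reach 0.05.

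**Figure D2:**
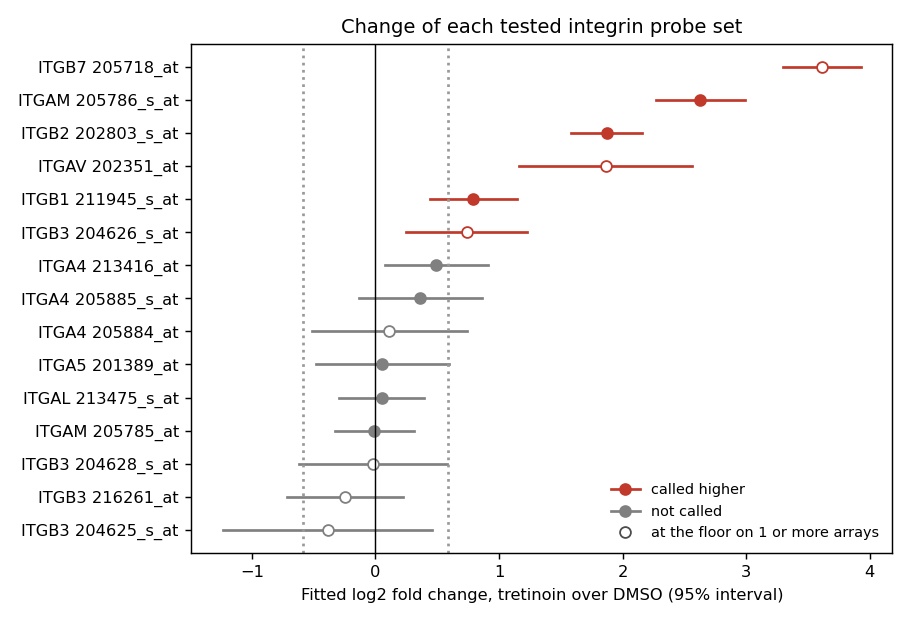
Fitted log2 fold change, tretinoin over DMSO, of the 15 tested integrin probe sets with 95% limma intervals. Red marks the 6 called higher, gray the 9 not called, open circles those with 1 or more arrays at the floor, and dotted lines a change of 1.5-fold. ITGB7 and ITGAM 205786_s_at lie farthest to the right, while ITGAM 205785_at sits at -0.01.

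ITGB7, the chain that forms the gut-homing receptor with ITGA4, had the largest fitted change of the family. Its probe set 205718_at had 251, 248 and 278 in tretinoin, against 23.7, 16.9 and 9.52 in DMSO before the floor. Only DMSO replicate 1 exceeded 20, and the tretinoin mean of 259 ± 16.3 (SD, n = 3) was at least 12.2-fold higher. With the floor in place the log2 fold change was 3.61 ± 0.13 (limma adjusted p = 9.98e-06), which ranked 32 of the 13374 tested. The call held under all 18 alternatives that could test it, but the size of the change followed the floor, with log2 fold changes of 2.69 with a floor of 40 and 4.03 with a floor of 10. ITGB7 lies at chr12:53191323-53207251 (GRCh38.p14).

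ITGA4, the alpha chain that ITGB7 and ITGB1 share, was not called on any of its 3 probe sets. On the brightest, 213416_at, it had 122, 115.9 and 133.01 in tretinoin, against 110.9, 76.8 and 79.2 in DMSO. All tretinoin arrays were above all DMSO arrays, but the log2 fold change of 0.49 ± 0.18 did not pass (95% interval 0.08 to 0.91, adjusted p = 0.0729). Without DMSO replicate 1 it did, at 0.66 (adjusted p = 0.0221). On 205885_s_at the gene had 50.9, 33.4 and 43.5 in tretinoin, against 38.9, 33.2 and 26.9 in DMSO, and the conditions overlapped. On 205884_at it had 30.6, 39.4 and 14.4 in tretinoin, against 32.1, 23.2 and 25.7 in DMSO. The log2 fold changes were 0.36 ± 0.21 and 0.11 ± 0.26, and the differences from 213416_at were -0.13 ± 0.19 and -0.38 ± 0.35 with overlapping arrays (exact p = 0.50 and p = 0.40). The log2 change of ITGA4 minus that of ITGB7 was -3.12 ± 0.09 with 2 ITGB7 values set to the floor, with no overlap between conditions (exact p = 0.10, adjusted p = 0.186). Its size and its SE therefore depend on the floor, and the difference was -3.53 with a floor of 10.

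ITGB1, the beta chain of the very late antigen receptors, was measured by 1 of its 5 probe sets. On 211945_s_at it had 353, 332 and 339 in tretinoin, against 197, 169 and 230 in DMSO. The conditions did not overlap, and the gene was 1.72-fold higher (log2 fold change 0.79 ± 0.15, adjusted p = 0.00641). This call was lost with the arrays left as deposited (0.59, adjusted p = 0.123). The other probe sets, 215878_at, 215879_at, 216178_x_at and 216190_x_at, lay between 1.09 and 17.9 in tretinoin and between 1.31 and 20.4 in DMSO. Only 1 of these values, on DMSO replicate 2 of 215878_at, exceeded 20, so they gave no measure of the change.

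ITGA5, which with ITGB1 forms the classical fibronectin receptor, had 81.3, 111.8 and 77.9 in tretinoin on 201389_at, against 100.8, 97.1 and 64.7 in DMSO. Its replicates spread widely and overlapped, and the log2 fold change was 0.05 ± 0.23 (95% interval -0.49 to 0.59). ITGAV, the vitronectin receptor alpha chain at chr2:186590056-186680901, had 110.6, 66.7 and 95.3 in tretinoin on 202351_at, against 36.5, 18.0 and 10.1 in DMSO before the floor. All tretinoin arrays were above all DMSO arrays, and only DMSO replicate 1 exceeded 20. The mean of 90.8 ± 22.3 in tretinoin was at least 3.56-fold higher (log2 fold change 1.86 ± 0.30, adjusted p = 0.00313). It was called under all 18 alternatives that could test it, with log2 fold changes of 1.15 with a floor of 40 and 2.24 with a floor of 10. The log2 change of ITGAV minus that of ITGB1 was 1.07 ± 0.37, without overlap (exact p = 0.10, adjusted p = 0.186). This rests on 2 ITGAV values set to the floor, and it was 1.45 with a floor of 10. The log2 changes of ITGA4 and ITGA5 minus ITGB1 were -0.30 ± 0.21 and -0.74 ± 0.37 with overlapping arrays (exact p = 0.40 and p = 0.20).

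**Figure D3:**
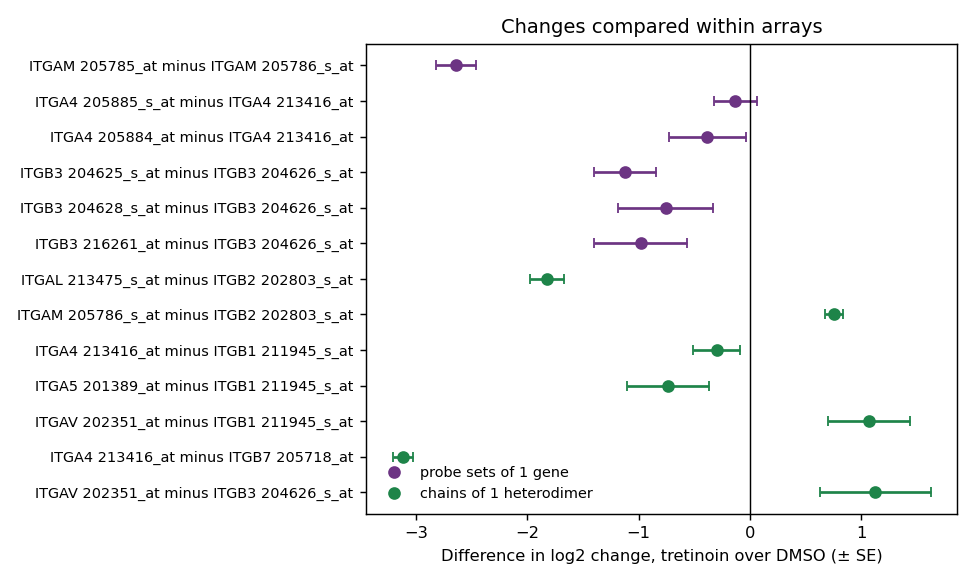
Difference between the log2 changes (tretinoin over DMSO) of 2 probe sets, taken within arrays, with SE from 3 arrays per condition. Purple points compare probe sets of 1 gene with the brightest of that gene, and green points compare an alpha chain with a beta chain. ITGAM 205785_at minus 205786_s_at lies at -2.64, and ITGA4 minus ITGB7 at -3.12.

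ITGB3, best known as the platelet chain that pairs with ITGA2B and also the partner of ITGAV, gave the least settled result. Of its 7 probe sets 4 were tested and 1 was called. On 204626_s_at it had 40.8, 41.2 and 37.6 in tretinoin, against 20.8, 13.5 and 32.8 in DMSO before the floor. The conditions did not overlap, but DMSO replicate 3 came close, and 1 DMSO array was below 20. Its mean was at least 1.63-fold higher (log2 fold change 0.74 ± 0.21, adjusted p = 0.0333), and the call was kept in only 6 of 17 alternatives. The other tested probe sets were not called. On 204628_s_at it had 11.3, 38.2 and 23.7 in tretinoin, against 27.3, 29.9 and 23.1 in DMSO. On 216261_at it had 18.0, 26.0 and 22.0 in tretinoin, against 26.3, 33.6 and 21.6 in DMSO, and on 204625_s_at it had 8.12, 31.9 and 9.01 in tretinoin, against 28.2, 6.77 and 50.4 in DMSO. Their log2 fold changes were -0.02 ± 0.25, -0.25 ± 0.20 and -0.39 ± 0.36, and most of these values lay near the floor. The log2 changes on 216261_at, 204625_s_at and 204628_s_at minus that on 204626_s_at were -0.98, -1.12 and -0.76. Of the 12 values behind each of these differences, 2, 4 and 2 had been set to the floor, so their sizes depend on it and no p is read from them. The remaining probe sets, 204627_s_at, 211579_at and 215240_at, never exceeded 20. Of 7 listed genes of megakaryocytes and platelets, which carry ITGB3, 6 were on the array and none of the 5 tested was called. At an unadjusted p under 0.05 none moved either. Their summed scaled signal was 142.5 to 196 in tretinoin and 138.5 to 184 in DMSO, and ITGA2B stood at 34.8 ± 10.1 in tretinoin and 33.7 ± 10.6 in DMSO (SD, n = 3 each). The log2 change of ITGAV minus that of ITGB3 on 204626_s_at was 1.13 ± 0.50, with 3 values at the floor and overlapping arrays (exact p = 0.20).

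Other integrin chains were weakly measured and none was called by limma. Of 12 further alpha chains, 10 were on the array and 5 were tested, with a median log2 fold change of -0.11, beside -0.03 over all tested probe sets. At an unadjusted p under 0.05, 1 of them was lower and none higher. Of 4 further beta chains, 3 were on the array and 2 were tested, with none called and none at an unadjusted p under 0.05.

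**Figure D4:**
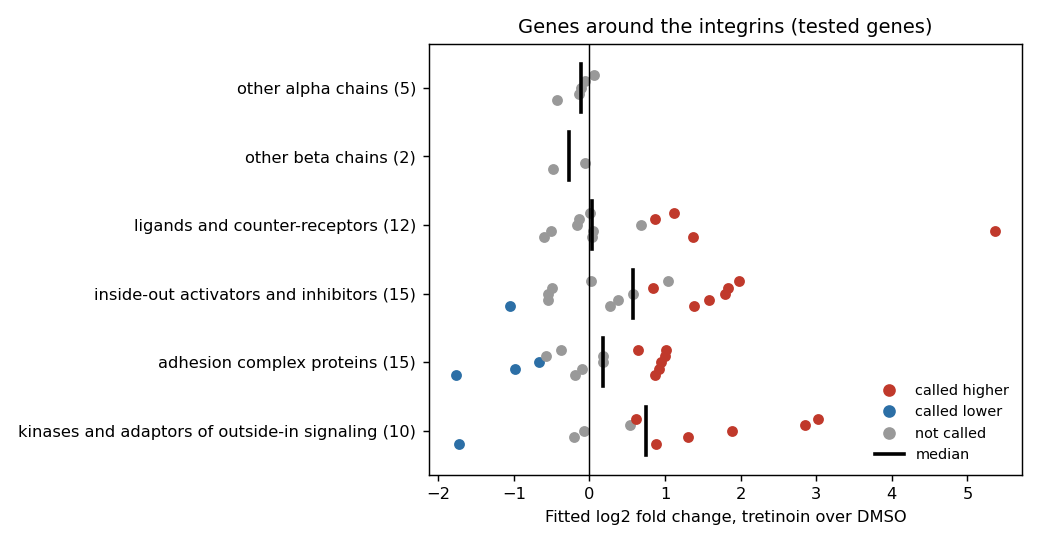
Fitted change on the log2 scale (tretinoin over DMSO) for the tested genes of 6 lists around the integrins, by the brightest tested probe set, with the number of tested genes in brackets. Red marks genes called higher, blue called lower, gray not called, and black bars mark medians. THBS1, at 5.37, lies far to the right of the other ligands.

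Genes that supply ligands, activate integrins or carry their signal were compared with the same fit. Of 12 tested ligands and counter-receptors, 4 were called higher (13.6% of all tested probe sets were) and none lower. THBS1 and ICAM4, 2 of the 4, passed the filter through their tretinoin arrays and had to differ to be tested, so the count is not read against that share. At an unadjusted p under 0.05 from limma, 2 of this list were lower. The median log2 fold change was 0.04. THBS1, a matrix protein bound by ITGAV receptors, had 833 ± 25.1 in tretinoin, against 20.1 ± 0.236 in DMSO with floored values, and was at least 41.4-fold higher on its brightest probe set. Of its 4 other tested probe sets 3 were called, at least 3.49-fold to at least 30.7-fold higher, while the remaining one exceeded 20 on all 6 arrays and was not called (log2 fold change -0.14, adjusted p = 0.660). ICAM3 and ICAM1, ligands of LFA-1, rose 2.58-fold and 2.16-fold (log2 fold changes 1.37 ± 0.14 and 1.12 ± 0.15), and the other tested probe sets of ICAM1 gave 2.34 and -0.01. The remaining gene, ICAM4, was at least 1.86-fold higher, and is named after its value was seen because the count is small. ICAM2 was tested close to the floor and was not called (log2 fold change 0.0060).

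Of 15 tested activators and inhibitors that act on integrins from inside the cell, 6 were called higher and 1 lower. Beside this, 13.6% of all tested probe sets were higher and 13.8% lower. The median log2 fold change of the list was 0.58. At an unadjusted p under 0.05 from limma, 8 of the list were higher and 2 lower. Of the 6 called higher, 1 (APBB1IP) passed the filter only through its tretinoin arrays. SIPA1, which switches off the small GTPase RAP1, was at least 3.71-fold higher, with 131 ± 6.80 in tretinoin and 35.4 ± 14.1 in DMSO. SKAP2, an adaptor of integrin signaling in myeloid cells, rose 3.54-fold (405 ± 28.5 in tretinoin, 114.6 ± 21.7 in DMSO). FYB1, its binding partner, was at least 3.32-fold higher. The 1 gene that fell was RASGRP2, which switches RAP1 on, at 37.1 ± 1.58 in tretinoin and 77.2 ± 11.2 in DMSO. It is named after its value was seen.

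Of 15 tested proteins of the adhesion complex, 6 were called higher and 3 lower, with a median log2 fold change of 0.18. Beside this, 13.6% of all tested probe sets were higher and 13.8% lower. Counted by probe set the calls in the list were even, with 8 higher and 8 lower of 27 tested. At an unadjusted p under 0.05 from limma, 6 of the 15 were higher and 4 lower. PXN, an adaptor at adhesion sites, was 1.97-fold higher. The related LPXN had 512 ± 69.6 in tretinoin and 255 ± 14.4 in DMSO. TNS1, which links integrin tails to actin, was at least 3.41-fold lower, at the floor on every tretinoin array and at 68.2 ± 5.33 in DMSO, and it was tested through its DMSO arrays alone. The other 2 that fell, named after their values were seen, were RSU1 (log2 fold change -0.99) and ACTN4 (-0.67). Of 10 tested kinases and adaptors that signal from engaged integrins, 6 were called higher and 1 lower, beside the same shares of 13.6% and 13.8%. Their median log2 fold change was 0.75. At an unadjusted p under 0.05 from limma, 7 were higher and 1 lower. The ITAM adaptors FCER1G and TYROBP rose 8.12-fold and 7.22-fold, and both are among the 90 transcripts the study chose from these arrays. The Src family kinase LYN rose 3.70-fold (615 ± 36.0 in tretinoin, 166 ± 12.5 in DMSO). The related kinase FYN, named after its value was seen, was lower at 63.7 ± 6.41 in tretinoin, against 210.4 ± 23.5 in DMSO.

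Markers of several cell types were read beside these changes. Over all tested probe sets, 13.6% were called higher and 13.8% lower. Of 7 listed monocyte and macrophage genes all were on the array, and 4 were tested and called higher. CSF1R, 1 of the 4, was above 20 on no DMSO array and had to differ to be tested. CD163, MRC1 and MSR1 were not tested, with floored means of 20 to 22.2 in tretinoin and 20 to 23.2 in DMSO. The list had a summed scaled signal of 1061 to 1132 in tretinoin and 254 to 301 in DMSO. Of 5 tested neutrophil genes 3 were higher and none lower by limma (1 lower at an unadjusted p under 0.05), with sums of 675 to 768 in tretinoin and 268 to 327 in DMSO, while CEACAM8, CXCR1 and LTF never exceeded 20. Of 6 tested promyelocyte and myeloid genes 4 were lower, and 1, SPI1, was 1.88-fold higher. ELANE and PRTN3, 2 of the 4, passed the filter through their DMSO arrays. The sums were 799 to 808 in tretinoin and 6254 to 6828 in DMSO. In DMSO they came mostly from MPO, whose 2 probe sets had means of 2739 and 3093 there, against 162 and 129 in tretinoin. The T cell, B cell, erythroid, and fibroblast and endothelium lists had no called gene. Only 3, 2, 1 and 4 of their genes were tested, so this says little. PECAM1, in the last of these lists and also among the ligands above, was lower at an unadjusted p under 0.05 from limma. Whether the cells moved in myeloid stage, and what part such a move would have in the integrin changes, was not tested.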

How the data were processed

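Labeled RNA from HL60 cells was hybridized to 3 HG-U133A arrays per condition. The authors deposited signal intensities from MAS5, on a linear scale and not yet brought to a common level between arrays, and the MAS5 version is not given in the sources used here. Depth does not apply to arrays, and their number limits the precision. Here arrays were scaled to equal mean signal, with DMSO replicate 1 as the standard. Signals under the floor of 20 took its value. A model with 1 mean per condition was then fitted to log2 signals in limma 3.58.1 (R 4.3.3). Probe sets above 20 on at least 3 arrays entered the fit. The code was tested on simulated data with changes placed in probe sets well above the floor. There 65% of 2-fold and 95% of 4-fold changes were called in the right direction, and 7.5% of calls were false. A probe set that was not called is therefore not shown to be unchanged. Only 200 simulated probe sets were changed, with 12647 tested, while 27.5% were called in the data. The simulated shares may therefore differ from those of the fit.

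Of the probe sets, 19071 were annotated to 1 gene, 1043 to several and 2169 to none listed, and 19059 were matched to RefSeq by gene ID. Folds are ratios of condition means after the floor, and are lower bounds where any array of the lower condition was at the floor. Where a gene stood for a list, its brightest tested probe set over all 6 arrays was used. The members and lists were chosen with earlier results of these data known. Each member probe set is named, with the 3 called genes of largest change per list. Pairs of probe sets were compared with scipy 1.17.1 (Python 3.11.15). Same-numbered arrays did not deviate together (correlations -0.03, -0.01 and 0.07), so numbers were not used as pairs. Alternatives were other scalings, floors, filters, fold minimums and variance models, a replicate block and each array left out.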

Additional observations from a re-analysis of the deposited data

How the results depend on the processing

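ITGAM on 205786_s_at, ITGB2, ITGB7 and ITGAV were called higher under each alternative that could test them (19, 19, 18 and 18). ITGB1 was called under 17 of 19 alternatives, failing without scaling and with a minimum fold change of 2, and ITGB3 on 204626_s_at under 6 of 17. The count of integrin probe sets called higher was 5 to 6 when each array was left out in turn, 4 without scaling and 3 when a signal above 20 on all 6 arrays was asked for, since ITGB7, ITGAV and ITGB3 then drop out of the test. Over all probe sets, 1142 were higher without scaling. With a minimum fold change of 2, 1012 were higher and 860 lower, and leaving out each array gave 1442 to 1734 higher and 1521 to 1967 lower. The replicate block gave 5 integrin probe sets higher, losing ITGB3 (adjusted p = 0.0633), and changed no other integrin call. Over all probe sets it gave 1743 higher and 1758 lower, and not every array correlated best with its own number.

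Signs turned only for probe sets that were not called. Without scaling the log2 fold changes of ITGAL, ITGA4 on 205884_at and ITGA5 were -0.15, -0.12 and -0.15. ITGA4 on 205884_at was -0.047 with a floor of 10 and -0.0011 when 16 was added to signals and no floor was used, and ITGAM on 205785_at was 0.00052 with median scaling. Leaving out each array gave -0.047 to 0.13 for ITGAL, -0.10 to 0.075 for ITGAM on 205785_at, -0.11 to 0.38 for ITGA4 on 205884_at, -0.15 to 0.17 for ITGA5 and -0.29 to 0.18 for ITGB3 on 204628_s_at. The cause was not tested. No difference between probe sets or chains changed sign under the alternatives run for it. Counted by probe set, 8 of 19 tested for ligands were higher and none lower. These 8 belong to the 4 genes called higher, so they repeat genes. For activators and inhibitors 12 of 25 were higher and 2 lower. For the adhesion complex 8 of 27 were higher and 8 lower, and for kinases and adaptors 9 of 15 higher and 2 lower. Over all tested probe sets, 13.6% were higher and 13.8% lower. The ligand count is not read against these shares, since THBS1 and ICAM4 passed the filter through their tretinoin arrays. Signals near 20 limit what ITGB3, ITGA4 on 205884_at and the DMSO levels of ITGB7 and ITGAV can show.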
